A study of Homo sapiens with 7 samples.

Results

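FOXA1 and SETD7 peaks were examined around GATA2 and GRHL2, a pair of genes that code for transcription factors working with FOXA1 and the androgen receptor in prostate cells. Members were all peaks of the 7 deposited lists with their midpoint in chromosome 3 from 128050000 to 128360000 (the GATA2 window) or chromosome 8 from 102400000 to 102780000 (the GRHL2 window), on build hg19. These windows held 236 of the 467188 peaks in all lists, 71 around GATA2 and 165 around GRHL2. Peaks that overlapped by at least 1 bp were merged into sites, which gave 34 sites in the GATA2 window and 60 in the GRHL2 window. The sites are numbered along each window, and a percentile is the rank of a peak by score within its own list, with the highest score near 100.

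FOXA1 is a forkhead pioneer factor that binds nucleosomal DNA at enhancers and makes it accessible to the androgen receptor. GATA2, a zinc-finger factor, binds at many androgen receptor enhancers and is known to support expression of the receptor itself. GRHL2, a grainyhead-family factor, opens epithelial enhancers and is known to interact with the androgen receptor. In RefSeq gene order (GRCh38.p14), the nearest protein-coding neighbours of GATA2 are DNAJB8 and RPN1, and GRHL2 is followed by NCALD. A peak in a window was therefore not assigned to either gene, and hg19 gene starts were not used here. Expression of GATA2 and GRHL2 was not measured in these libraries.

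All libraries came from established human prostate cancer lines, with 1 library in each group. In CWR22-Rv1 (22Rv1), an androgen receptor-positive line, SETD7 and FOXA1 were mapped in vehicle cells. FOXA1 was also mapped in 22Rv1 cells carrying a control hairpin (shCTL in the labels, shNTC in the series text) and in cells carrying a hairpin against SETD7, a lysine methyltransferase (shSETD7). In LNCaP, a line from a lymph node metastasis, FOXA1 was mapped after 4 h with vehicle (DMSO), with the LSD1 (lysine demethylase) inhibitor GSK2879552, or with GSK2879552 together with PFI-2, an inhibitor of SETD7. The treatment label of this last library reads with or without PFI-2, so its group rests on its title. In the FOXA1 list labelled vehicle, each of the 65461 peak names contains siNTC, a tag that the labels do not explain, so its main results are set beside those from shCTL. The sources used here give neither the SETD7 level after knockdown nor whether a hairpin line was 1 clone.

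The 22Rv1 FOXA1 lists held 65461 (vehicle), 83994 (shCTL) and 63952 (shSETD7) peaks, and the LNCaP lists 80205 (DMSO), 64217 (GSK2879552) and 83833 (combination). Read depth is unknown from peak lists. Scores began at 13 in 22Rv1 and at 40 to 48 in LNCaP. Scores are the authors' own value for each peak, and percentiles from lists of different length describe a place within a list, not a change in binding. With 1 library a group, no test between conditions was made, and 95% Wilson intervals on shares cover counting error only. Peaks in a window are not replicates of a condition.

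FOXA1 peaks were dense around GRHL2 in every list, and around GATA2 in the shCTL list. The GRHL2 window held 24 vehicle, 32 shCTL and 26 shSETD7 peaks in 22Rv1, and 27 DMSO, 22 GSK2879552 and 27 combination peaks in LNCaP. This came to between 5.79 (GSK2879552) and 8.42 (shCTL) peaks per 100 kb, against 2.28 to 3.54 over chromosome 8 and 2.86 to 3.91 over the 10 Mb around the window. The GATA2 window held 8 vehicle, 23 shCTL and 11 shSETD7 peaks, and 9 DMSO, 9 GSK2879552 and 10 combination peaks. Its density was 7.42 peaks per 100 kb in shCTL and 2.58 to 3.55 in the other 5 FOXA1 lists, where chromosome 3 held 2.42 to 3.54 in the 6 lists. The 10 Mb around the GATA2 window held 377 shCTL, 252 vehicle and 335 shSETD7 peaks, so the surplus of shCTL peaks there was smaller than in the window itself.

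**Figure D1:**
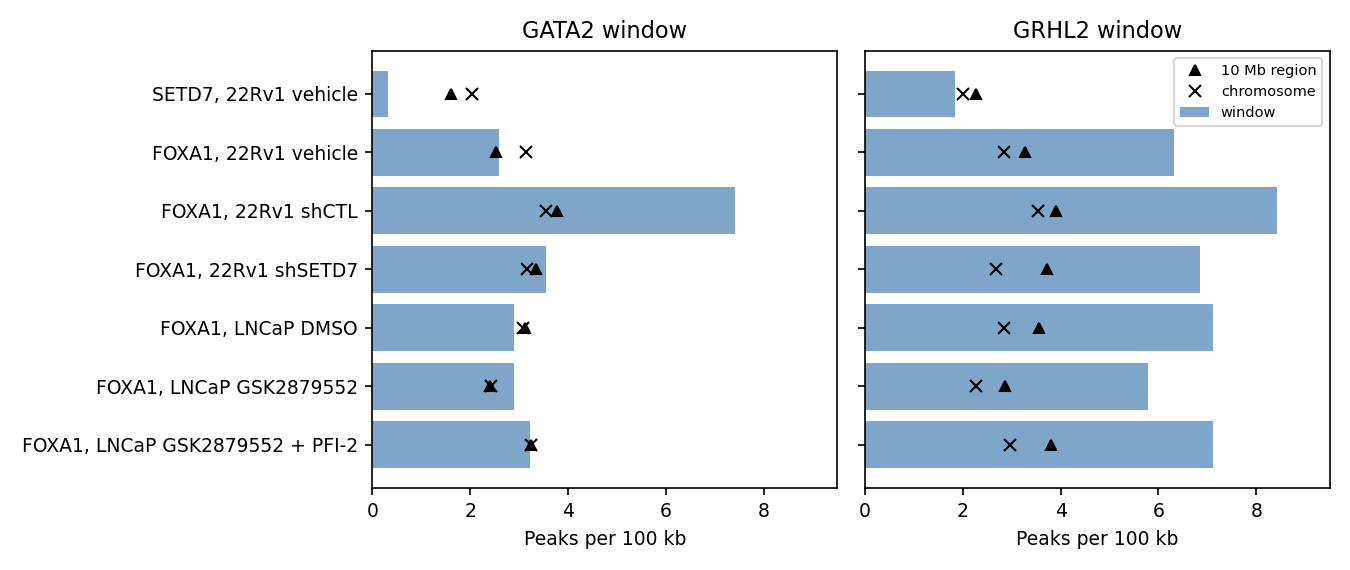
Bars give peaks per 100 kb (x axis) in each list (rows) within the GATA2 window (left) and the GRHL2 window (right), with triangles for the 10 Mb around the window and crosses for the whole chromosome. In the GRHL2 window all 6 FOXA1 bars reach past both marks; in the GATA2 window the shCTL bar, at 7.42, stands apart.

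The GATA2 window held few strong sites, and these were shared by all 6 FOXA1 lists. Sites 1, 3, 5 and 28 were found in every FOXA1 list, which is 4 of 34 sites or 11.8% (4.67 to 26.6), against 7.53% of the 193692 merged sites of the whole series. Sites 1, 3 and 5 lay within the first 20 kb of the window, and site 28 lay 209.1 kb beyond site 5. No site between them was found in all 6 lists.

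Site 28, on chromosome 3 from 128278267 to 128278772, had the highest 22Rv1 scores of the GATA2 window. It scored 1243 in vehicle, 2386 in shCTL and 4656 in shSETD7 cells, at percentiles 98.8, 97.2 and 99.4. In LNCaP it scored 412 with DMSO, 547 with GSK2879552 and 621 with the combination, at percentiles 74.6, 84.2 and 83. It was thus among the strongest sites of each 22Rv1 list and a moderately strong site in LNCaP. Its shSETD7 peak held rank 413 of 63952 by score, and its shCTL peak rank 2326 of 83994.

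Site 1, from 128054303 to 128054787, showed the same order between lines. Its percentiles were 94 in vehicle, 96.8 in shCTL and 98.1 in shSETD7, and 83.9, 85.1 and 84.6 with DMSO, GSK2879552 and the combination. Site 5, from 128068537 to 128069174, was strong in both lines, at 97.1, 85.9 and 87.4 in the 22Rv1 lists and 92.9, 95.6 and 91.5 in the LNCaP lists. It gave the only LNCaP peaks of the GATA2 window in the highest score decile. Site 3, from 128062356 to 128062727, was weaker, at 84, 63.2 and 79.1 in 22Rv1 and 69.4, 74 and 64 in LNCaP.

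Site 11, from 128101172 to 128101641, was found in 5 FOXA1 lists and lacked a vehicle peak. Its percentiles were 75.6 in shCTL and 60.5 in shSETD7, and 77.7 with DMSO, 52.4 with GSK2879552 and 75.4 with the combination. The other 4 sites found in both lines (sites 4, 8, 12 and 33) were in 3 lists each and at or below percentile 57.9 in each of them. In all, 9 of 34 sites were found in both lines, or 26.5%, close to the 26.2% of the whole series.

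**Figure D2:**
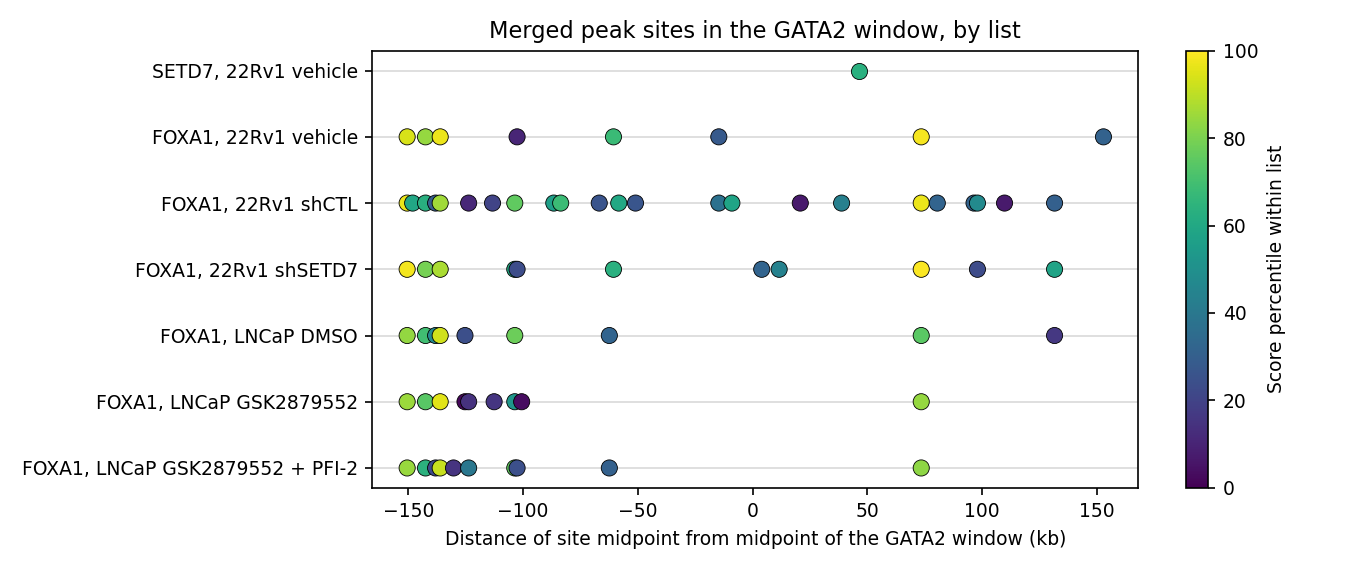
Each point is a merged site of the GATA2 window, placed by its distance from the window midpoint in kb (x axis) in the rows of the lists that hold it, and coloured by its score percentile within that list. The column of bright points near the left edge and the isolated column of 6 points at 73.5 kb (site 28) are the sites found in all FOXA1 lists; the shCTL row holds the most points, 23 in all.

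The remaining GATA2 sites were mostly weak and found in 22Rv1. Of the 34 sites, 19 were found in 22Rv1 FOXA1 lists only, or 55.9% (39.5 to 71.1), against 40.1% in the whole series. The shCTL list alone accounted for 13 of them, or 38.2% (23.9 to 55), against 10.1% in the whole series. These 13 sites lay between 128056763 and 128314980, with shCTL percentiles of 6.74 to 68.3 and a median of 31.8. The highest was site 15, from 128121254 to 128121522, at score 252. Without the shCTL list the window held 21 sites.

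Other 22Rv1 sites of this window were few. Site 18, from 128144222 to 128144670, was found in vehicle (percentile 67.6) and shSETD7 (63.6) but not in shCTL. Site 21, from 128190043 to 128190565, was the only site in vehicle (27.9) and shCTL (37.4) that lacked an shSETD7 peak. Site 31 was found in shCTL (47.5) and shSETD7 (22.7), and site 34 in vehicle alone (31.2). Sites 23 and 24, from 128208827 to 128209096 and from 128216371 to 128216813, were found in shSETD7 alone, at percentiles 32 and 44.2.

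Sites of LNCaP alone numbered 5 of 34 in the GATA2 window, or 14.7% (6.45 to 30.1), against 23.0% in the whole series. All were at or below percentile 31.8. Site 17, from 128142450 to 128142764, was found with DMSO (31.8) and the combination (30.7). Site 7 was found with DMSO (24.2) and GSK2879552 (1.87), site 6 with the combination alone (14.9), and sites 10 and 13 with GSK2879552 alone (15.5 and 3.14). Between sites 17 and 28, over 135.5 kb, no LNCaP list held a peak. The 22Rv1 lists held peaks there, in shCTL, vehicle or shSETD7 cells, all at or below percentile 67.6.

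The GRHL2 window held more strong sites, spread over its whole length. In the highest score decile were 7 of 24 vehicle peaks, or 29.2% (14.9 to 49.2), against 9.97% of that list. The same decile held 6 of 32 shCTL peaks, or 18.8% (8.89 to 35.3), and 3 of 26 shSETD7 peaks, or 11.5% (4 to 29), against 10.0% of each list. In LNCaP it held 7 of 27 DMSO peaks, or 25.9% (13.2 to 44.7), against 9.99%. It held 6 of 22 GSK2879552 peaks, or 27.3% (13.2 to 48.2), and 7 of 27 combination peaks, or 25.9% (13.2 to 44.7), against 10.0% of each list. The whole-list share lay below the interval in vehicle and the 3 LNCaP lists, and inside it in shCTL and shSETD7. In the GATA2 window the decile held 3 of 8 vehicle peaks, or 37.5% (13.7 to 69.4), which is also above that of the list. It held 2 of 23 shCTL peaks, or 8.7% (2.42 to 26.8), 2 of 11 shSETD7 peaks, or 18.2% (5.14 to 47.7), and 1 peak of each LNCaP list. The windows were not tested against each other.

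All 6 FOXA1 lists held 7 of the 60 GRHL2 sites (sites 12, 17, 25, 39, 42, 44 and 52), or 11.7% (5.77 to 22.2). A further 8 were found in 5 lists, or 13.3%, against 7.04% in the whole series. In all, 20 sites were found in both lines, or 33.3% (22.7 to 45.9), against 26.2% in the whole series. The 22Rv1 FOXA1 lists alone held 27, or 45% (33.1 to 57.5), against 40.1%. The LNCaP lists alone held 7, or 11.7% (5.77 to 22.2), against 23.0%, which lies above that interval. The SETD7 list alone held 6.

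Sites 42 and 44 were strong in every FOXA1 list. Site 42, on chromosome 8 from 102595573 to 102596396, had percentiles of 95.3 in vehicle, 90.2 in shCTL and 95.8 in shSETD7. With DMSO, GSK2879552 and the combination it stood at 98.3, 98.6 and 97.6. Site 44, from 102619467 to 102620753, was the widest site of either window at 1287 bp. Its percentiles were 99.8, 95.9 and 93.1 in the 22Rv1 lists and 96.4, 89.5 and 95.9 in the LNCaP lists. Its vehicle peak, at score 2021, held rank 138 of 65461.

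Site 17, from 102479006 to 102479786, was among the strongest sites of 5 lists and weak in the sixth. It scored 1262 in vehicle (percentile 98.9), 4027 in shCTL (98.9) and 54 in shSETD7 (36.3). In LNCaP it scored 1486 with DMSO (98), 1179 with GSK2879552 (97) and 1352 with the combination (96.4). The shSETD7 peak also lay off the others, with its midpoint at -204.5 bp from that of the shCTL peak. The vehicle and LNCaP midpoints were within 32.5 bp of the shCTL midpoint. Next to it, site 18, from 102479964 to 102480286, was found in 22Rv1 only, at percentiles 73.1 in vehicle, 69.5 in shCTL and 83.1 in shSETD7.

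Site 39, from 102584989 to 102585429, followed the same order. Its percentiles were 95.8 in vehicle, 89.9 in shCTL and 37.7 in shSETD7, and 92.4, 88 and 86.3 with DMSO, GSK2879552 and the combination. Site 12, from 102463386 to 102463782, stood at 97.2, 83.4 and 42.5 in the 22Rv1 lists and at 62.4, 69.7 and 62 in the LNCaP lists. At sites 12, 17 and 39 the shSETD7 percentile was the lowest of the 6.

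Sites 25 and 52 stood higher in the 22Rv1 lists than in the LNCaP lists. Site 25, from 102517601 to 102518529, had percentiles of 94.9, 93.6 and 88.4 in vehicle, shCTL and shSETD7, and 60.2, 76 and 49.9 in DMSO, GSK2879552 and the combination. Site 52, from 102690562 to 102691200, had 79.9, 92.7 and 96.5 in 22Rv1 and 31.1, 12.8 and 21.6 in LNCaP. Site 5, from 102421974 to 102422715, set the controls of 22Rv1 apart, with score 2988 in shCTL (98) and 104 in vehicle (58.5). It scored 376 in shSETD7 (84), and in LNCaP it was found with DMSO (43) and the combination (38.4) but not with GSK2879552.

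**Figure D3:**
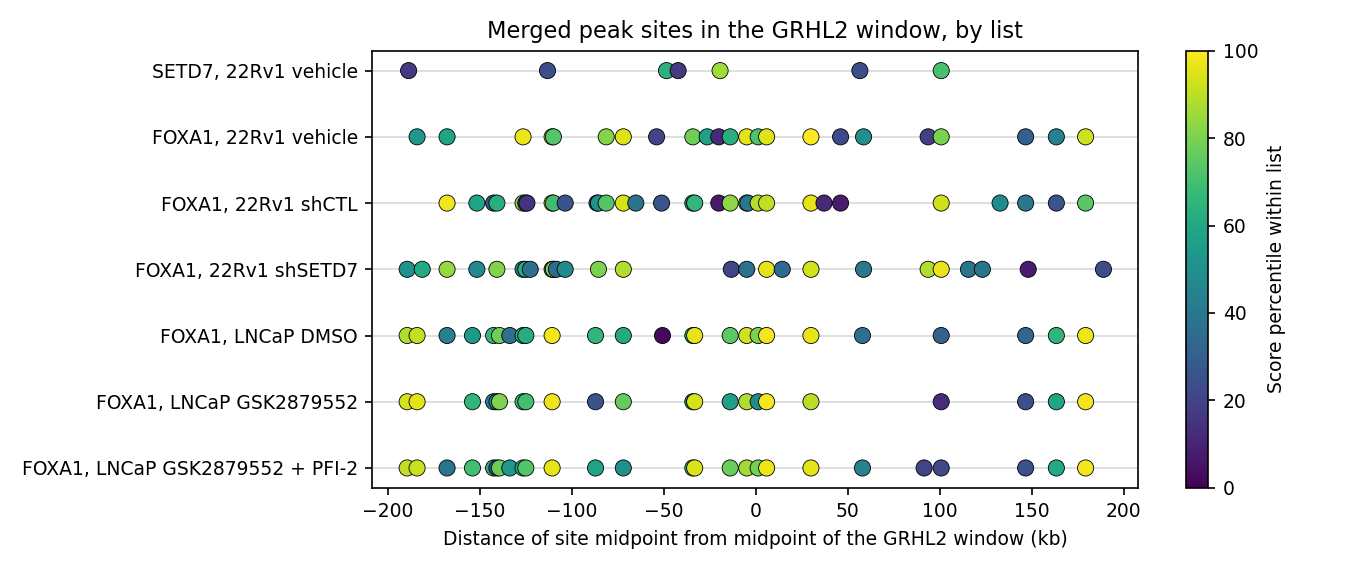
Each point is a merged site of the GRHL2 window, placed by its distance from the window midpoint in kb (x axis) in the rows of the lists that hold it, and coloured by its score percentile within that list. Bright points (high percentiles) recur in the same columns across lists, such as sites 42 and 44 at 6 and 30.1 kb, while the shSETD7 row has gaps or darker points in several of these columns.

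Sites 59, 33, 3 and 1 stood higher in the LNCaP lists than in the 22Rv1 lists. Site 59, from 102769139 to 102769585, stood at 97.1, 98.2 and 98.4 with DMSO, GSK2879552 and the combination. It stood at 92.4 in vehicle and 74.2 in shCTL, and shSETD7 held no peak. Site 33, from 102556649 to 102557061, had 96, 93.6 and 94.5 in LNCaP and, in 22Rv1, a peak in shCTL only (66). Site 3, from 102405720 to 102406198, had 90.7, 95.5 and 91.8 in LNCaP and a vehicle peak at 53.2. Site 1, from 102400382 to 102400785, had 88.1, 93.1 and 90.8 in LNCaP and, in 22Rv1, an shSETD7 peak only (50.9).

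Of the shCTL FOXA1 peaks, 7 of 23 in the GATA2 window overlapped an shSETD7 peak, or 30.4% (15.6 to 50.9), and 14 of 32 in the GRHL2 window, or 43.8% (28.2 to 60.7). The share over the whole shCTL list was 44.5%, inside both intervals. The 16 shCTL peaks of the GATA2 window without an shSETD7 peak had percentiles of 6.74 to 68.3 with a median of 31.5. The 18 of the GRHL2 window had 6.74 to 88.9 with a median of 38.9. Those around GATA2 were thus weak or of middle rank in their list, and those around GRHL2 included higher ranks.

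The control lists differed as well. Of the shCTL peaks, 5 of 23 overlapped a vehicle peak in the GATA2 window, or 21.7% (9.66 to 41.9), against 51.3% of the whole list, which lies above that interval. Around GRHL2, 18 of 32 did, or 56.2% (39.3 to 71.8). With only the higher-scoring 50% of each list, the GATA2 share was 40% (4 of 10, 16.8 to 68.7) and the GRHL2 share 77.8%. That GATA2 interval holds 51.3%, but the whole-list share in that setting was not computed. Of the vehicle peaks, 6 of 8 in the GATA2 window overlapped an shSETD7 peak (75%, 40.9 to 92.9) and 11 of 24 in the GRHL2 window (45.8%, 27.9 to 64.9), against 43.4% of that list. These comparisons share their lists and are not independent of each other.

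Counting only shCTL peaks that overlapped a vehicle peak, 4 of 5 in the GATA2 window had an shSETD7 peak (80%, 37.6 to 96.4), against 9 of 18 in the GRHL2 window (50%, 29 to 71) and 58.1% of such peaks in the whole list. Of the other 18 shCTL peaks of the GATA2 window, which lacked a vehicle peak, 3 had an shSETD7 peak (sites 11, 31 and 33). Over the whole list 44.5% of all shCTL peaks had an shSETD7 peak, so the share was lower without a vehicle peak there too. No vehicle peak of the highest decile in the GATA2 window (3 peaks, 0 to 56.1%) lacked an shSETD7 peak or had one below percentile 50.

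Around GRHL2, 4 of the 7 vehicle peaks in the highest decile had no shSETD7 peak or one below percentile 50, or 57.1% (25 to 84.2), against 28.3% of the whole vehicle list. These were sites 12, 17, 39 and 59. The background lies inside the interval. In the 10 Mb around the window 19 of 36 such peaks did so, or 52.8% (37 to 68), an interval above the background. The share was thus similar over that region, which includes the window. None of the 7 lacked an shCTL peak or had one below percentile 50 (0%, 0 to 35.4), against 3.06% over the whole vehicle list. From the shCTL list, 0 of 6 GRHL2 peaks in the highest decile lacked an shSETD7 peak (0 to 39%), against 21.6% over the whole list. Of these 6 peaks, 1 (site 17) had an shSETD7 peak below percentile 50 (16.7%, 3.01 to 56.4). Over the whole list that share was 8.39% of highest-decile peaks with an shSETD7 peak. Both backgrounds lie inside the intervals. Of the shCTL peaks in the highest decile at a vehicle peak also in its highest decile, 1 of 4 GRHL2 peaks (site 17) had no shSETD7 peak or one below percentile 50, or 25% (4.56 to 69.9), against 21.0% of the whole list. With that rule the GRHL2 share was thus near the background, but it rested on 4 peaks. Site 39, at percentile 89.9 in shCTL, fell just short of the rule. In the 10 Mb around the window 9 of 23 such peaks did so, or 39.1% (22.2 to 59.2), an interval above the background. These counts were chosen after the values were seen.

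Sites of both 22Rv1 controls without an shSETD7 peak numbered 9 of 60 in the GRHL2 window, or 15% (8.1 to 26.1), against 9.3% in the whole series, which lies inside the interval. The highest shCTL scores among them were at site 41 (795), site 37 (520), site 59 (324) and site 24 (306). Site 41, from 102591057 to 102591824, had percentiles of 71.8 in vehicle and 88.9 in shCTL, and 79.9, 48.2 and 78.7 with DMSO, GSK2879552 and the combination. Site 37, from 102576021 to 102576477, had 62.5 and 83.1 in the controls and 74.5, 55.7 and 77.2 in LNCaP. Site 24, from 102508558 to 102508973, had 81.3 and 72.9 in the controls and no LNCaP peak. The others were sites 32, 35, 46, 56 and 58, with shCTL scores of 38 to 143.

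Of the 8 GRHL2 sites found in 5 FOXA1 lists, 6 lacked only the shSETD7 peak (sites 32, 37, 41, 56, 58 and 59), or 75% (40.9 to 92.9). In the whole series 62.4% of such sites lacked the shSETD7 peak, so this share was near the background. The others were site 5, without GSK2879552, and site 13, from 102464832 to 102465272, without vehicle. Site 13 stood at 30.9 in shCTL and 63.7 in shSETD7, and at 62.2, 69.8 and 72.7 in LNCaP.

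Sites found in both shCTL and shSETD7 could be set side by side by their place in each list. The 14 such sites of the GRHL2 window had median percentiles of 86.6 in shCTL and 80.7 in shSETD7, and 7 were higher in each. In the whole series 62.2% of such sites were higher in shSETD7, with medians of 66.9 and 69. The percentiles of 5 sites lay more than 30 points apart, or 35.7%, against 19.8% of such sites in the whole series. Shares of sites more than 30 points apart, here and below, rest on few sites and were given no interval. Sites 12, 17 and 39 were lower in shSETD7, while sites 13 and 23 were higher. Site 23, from 102504236 to 102505023, stood at 50 in shCTL and 80.1 in shSETD7 and no other list held it.

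Between vehicle and shSETD7, 4 of 11 GRHL2 sites lay more than 30 points apart (36.4%, against 26.9% in the whole series). Sites 12, 17 and 39 were lower in shSETD7, and site 51, from 102683625 to 102683880, stood at 18.3 in vehicle and 88.1 in shSETD7. Between the controls, 1 of 18 GRHL2 sites did so (site 5, 5.56% against 21.9%). In the GATA2 window no site found in both lists of these pairs lay that far apart, over 7, 6 and 5 sites.

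**Figure D4:**
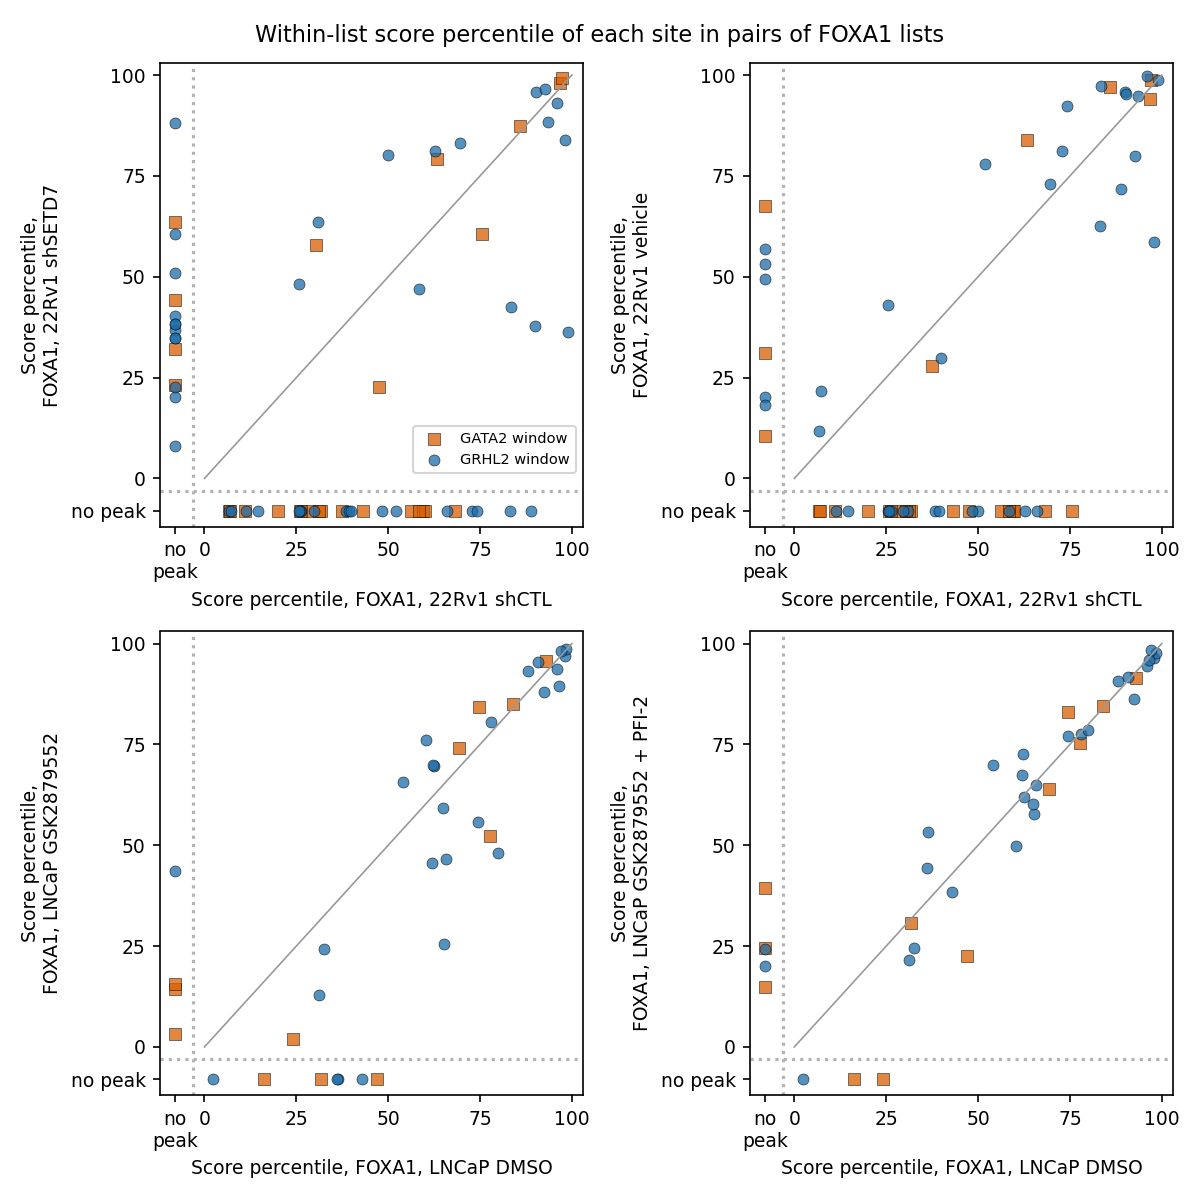
Each point is a merged site (squares GATA2 window, circles GRHL2 window), with its within-list score percentile in a control list on the x axis and in a second FOXA1 list on the y axis; the outer strips hold sites with no peak in a list, and the diagonal marks equal percentiles. In the shSETD7 panel 3 GRHL2 circles (sites 12, 17 and 39) lie far below the diagonal, and sites 13 and 23 lie far above it. Of the GRHL2 sites in both lists of that panel, 7 are higher in each. In the LNCaP combination panel points keep closer to the diagonal.

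Sites of the shSETD7 library alone were at or below percentile 60.6. Of the shSETD7 peaks, 7 of 11 in the GATA2 window and 14 of 26 in the GRHL2 window overlapped an shCTL peak, or 63.6% and 53.8%, against 58.2% of that list. Among the FOXA1 lists, shSETD7 alone held 9 of 60 GRHL2 sites, or 15% (8.1 to 26.1), against 11.1% of sites in the whole series. Their percentiles were 8.14 to 60.6. The highest was site 4, from 102408484 to 102409075, at score 117. Sites 53 and 54, from 102705595 to 102705899 and from 102713081 to 102713451, came next at score 60 each.

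Of the other 18 GRHL2 sites of 22Rv1 FOXA1 lists only, 8 were in a pair of lists, 9 in 1 list and site 18 in all 3. Sites 7 and 20 were found, like site 23, in shCTL and shSETD7, at percentiles of 58.5 and 46.9 (site 7) and 25.6 and 48.1 (site 20). Site 49 was found in vehicle (49.5) and shSETD7 (40.2). The 7 sites of shCTL alone had percentiles of 11.4 to 48.3, and the 2 of vehicle alone stood at 20.2 and 56.9. No site of a lone 22Rv1 FOXA1 list in this window passed percentile 60.6.

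With GSK2879552 in LNCaP, 6 of 9 DMSO peaks were kept in the GATA2 window (66.7%, 35.4 to 87.9) and 21 of 27 in the GRHL2 window (77.8%, 59.2 to 89.4). The whole DMSO list kept 71.2%, inside both intervals. Every DMSO peak of these windows that lacked a GSK2879552 peak stood below percentile 50. In the GATA2 window they were sites 4, 17 and 33, at DMSO percentiles of 47, 31.8 and 16.2. Around GRHL2 they were sites 5, 11, 29 and 48, at 43, 36.3, 2.34 and 36.1, and the weaker of the paired DMSO peaks in sites 25 and 42. Over the whole DMSO list, 1 of 8011 peaks in the highest decile lacked a GSK2879552 peak (0.0125%). Strong DMSO peaks were thus rarely without a GSK2879552 peak in the whole list too.

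Of the 21 GRHL2 sites found with DMSO and GSK2879552, 2 lay more than 30 percentile points apart, or 9.52%, against 12.9% in the whole series. These were site 21, from 102502853 to 102503214, at 65.3 with DMSO, 25.4 with GSK2879552 and 57.7 with the combination, and site 41. Site 21 was found in LNCaP only, as were sites 6 and 10, which all 3 LNCaP lists held. Site 10, from 102450654 to 102451004, stood at 77.9, 80.5 and 77.6, and site 6, from 102435904 to 102436256, at 54.1, 65.6 and 69.8. In the GATA2 window no site of 6 lay more than 30 points apart.

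GSK2879552 peaks without a DMSO peak were weak around GATA2 and numbered 1 around GRHL2. In the GATA2 window 6 of 9 GSK2879552 peaks overlapped a DMSO peak (66.7%, 35.4 to 87.9), against 89.6% of the whole list, which lies above the interval. The 3 others, sites 8, 10 and 13, were at or below percentile 15.5. Around GRHL2, 21 of 22 did (95.5%), and the exception was site 9, from 102449196 to 102449645, at 43.6 with GSK2879552, 24.2 with the combination, 62.8 in shCTL and 81.2 in shSETD7.

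With the combination of GSK2879552 and PFI-2, 7 of 9 DMSO peaks of the GATA2 window had a peak (77.8%, 45.3 to 93.7) and 26 of 27 in the GRHL2 window (96.3%, 81.7 to 99.3), against 88.6% of the whole list. The DMSO sites without a combination peak were sites 7 and 33 around GATA2 and site 29 around GRHL2, at DMSO percentiles of 24.2, 16.2 and 2.34. Among DMSO peaks lacking a GSK2879552 peak, 2 of 3 in the GATA2 window (sites 4 and 17) and 5 of 6 in the GRHL2 window overlapped a combination peak, against 67.9% in the whole list. The GRHL2 peaks were those of sites 5, 11 and 48 and the weaker DMSO peaks of sites 25 and 42.

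Site 11, from 102456271 to 102456606, stood at 36.3 with DMSO and 53.3 with the combination. Site 48, from 102647919 to 102648316, stood at 36.1 and 44.4. None of the 24 GRHL2 sites or 7 GATA2 sites found with DMSO and the combination lay more than 30 percentile points apart, against 4.49% in the whole series. Both LNCaP comparisons share the DMSO list.

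**Figure D5:**
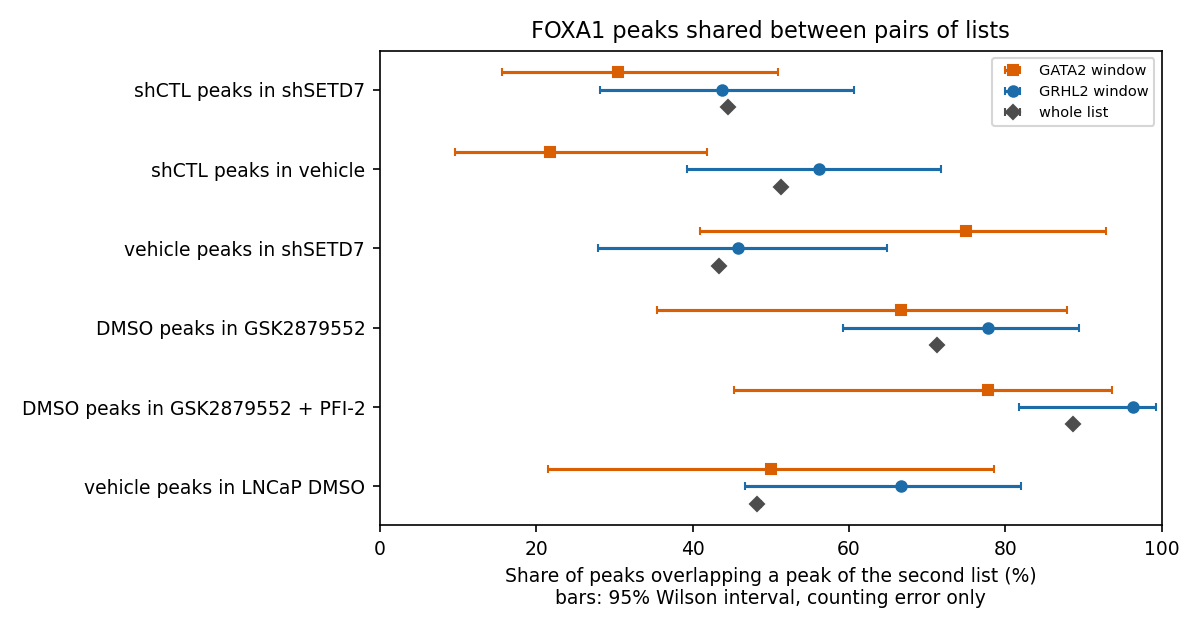
Points give the share of peaks of the first-named list that overlap a peak of the second (x axis, %), for the GATA2 window (squares), the GRHL2 window (circles) and the whole list (diamonds), with 95% Wilson intervals for counting error. The GATA2 interval for shCTL peaks in vehicle, 9.66 to 41.9, lies below the whole-list value of 51.3; the other intervals drawn for the windows hold the whole-list value of their row.

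Across lines, 4 of 8 vehicle 22Rv1 peaks of the GATA2 window overlapped an LNCaP DMSO peak (50%, 21.5 to 78.5) and 16 of 24 in the GRHL2 window (66.7%, 46.7 to 82), against 48.3% of the whole vehicle list. From the shCTL list, 7 of 23 did around GATA2 (30.4%, 15.6 to 50.9) and 17 of 32 around GRHL2 (53.1%, 36.4 to 69.1), against 45.2% of that list. Of the DMSO peaks, 4 of 9 and 16 of 27 overlapped a vehicle peak, against 39.2% of the DMSO list. The GATA2 share was 44.4% (18.9 to 73.3), and the GRHL2 share was 59.3% (40.7 to 75.5), whose interval lies above the whole-list value. The GATA2 sites shared between vehicle and DMSO were sites 1, 3, 5 and 28, the same that all 6 FOXA1 lists held.

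The windows held 8 SETD7 peaks, of which 1 overlapped a FOXA1 peak. The GATA2 window held 1 SETD7 peak, site 27, from 128251282 to 128251536, at score 32 (percentile 63.3) and with no FOXA1 peak. That is 0.323 peaks per 100 kb, against 2.04 over chromosome 3, 1.61 over the 10 Mb around the window and 0.825 over all chromosomes. The GRHL2 window held 7, or 1.84 per 100 kb against 2 over chromosome 8 and 0.825 over all chromosomes. Of these, 1 overlapped a FOXA1 peak (14.3%, 2.57 to 51.3), against 19.0% of the SETD7 list with a FOXA1 peak of any list. With a FOXA1 peak within 1 kb in place of an overlap, 4 of 7 did (57.1%, 25 to 84.2), against 31.9% of the SETD7 list, so the background lay inside the interval under either rule. These were sites 2, 36, 47 and 52. Both backgrounds pool all FOXA1 lists, while the SETD7 library came from vehicle cells. Over the whole SETD7 list, 5.86% of peaks overlapped a vehicle FOXA1 peak, 7.89% an shCTL peak and 15.5% an shSETD7 peak. For the LNCaP lists the share was 2.58% to 3.14%. The vehicle share of 5.86% also lay inside the GRHL2 interval for overlap.

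The overlapping SETD7 peak was at site 52, which all 6 FOXA1 lists held. Its SETD7 score was 37 (percentile 70.9), and its FOXA1 percentiles were 12.8 to 31.1 in LNCaP and 79.9 to 96.5 in 22Rv1. The highest SETD7 score of the windows was 51 (86), at site 36 of the GRHL2 window, from 102570553 to 102570929, which no FOXA1 list held. The other SETD7-only sites of this window were sites 2, 16, 30, 31 and 47, at percentiles of 16.6 to 64.1. In the highest decile of the SETD7 list was 0 of 7 peaks around GRHL2 (0 to 35.4) and 0 of 1 around GATA2, against 9.63% of that list.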

How the data were processed

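Per the labels' protocols, cells were fixed with 1% formaldehyde and sonicated before immunoprecipitation. The submitters' processing notes name FastQC 0.11.9, BWA 0.7.17-r1188, SAMtools 1.9, MACS2 2.1.4 and build hg19; neither settings nor a control for peak calling are given there. Each deposited list holds 1 score per peak, the authors' own whole number, whose definition is not given.

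Groups came from sample titles. Whole-list values cover the 24 standard chromosomes. Percentiles used mean ranks for ties, and a site with several peaks of a list took the highest. Chromosome lengths for densities were the last peak end in any list. The overlap code was tested on simulated data and counted 37413 shCTL peaks with an shSETD7 peak, as did bedtools 2.31.1. Sites named with values were the 6 highest mean percentiles per window, all SETD7 sites, and up to 4 per class of lost or gained sites; others named complete a count of their class or were chosen after their values were seen. The windows, lists and rule were chosen with earlier results of these data known. Alternatives were other overlap rules, equal-length lists, the higher-scoring 50% and wider windows. Other cofactor genes, planned, were not run because they need an hg19 annotation. Tools were pandas 2.3.3, numpy 2.4.6 and scipy 1.17.1 under Python 3.11.15, with plots by matplotlib 3.10.9.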

Additional observations from a re-analysis of the deposited data

How the results depend on the processing

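Of 94 alternatives over 16 results, 81 stayed within the interval of the reported share or within 1.5 times the reported count, and 13 did not. Many of these intervals are wide, such as 0 to 79.3% for the 1 SETD7 peak around GATA2. For the 9 DMSO peaks there, kept with GSK2879552, the interval was 35.4 to 87.9%. Staying within such an interval therefore says little about stability. With the higher-scoring 50% of each list, merged sites numbered 13 around GATA2 and 32 around GRHL2, and GRHL2 sites in all 6 FOXA1 lists fell to 2. In the same setting shCTL peaks found in vehicle came to 77.8% around GRHL2, DMSO peaks kept with GSK2879552 and found with the combination to 100% each around GATA2 (5 of 5), and vehicle peaks found in LNCaP DMSO to 80% around GATA2. Windows extended by 50% of their length on both sides held 65 sites around GATA2 (8 in all 6 lists) and 91 around GRHL2. SETD7 peaks with a FOXA1 peak within 1 kb came to 57.1% around GRHL2 (4 of 7). Fewer peaks or a longer window change counts of sites by construction, and a looser rule cannot lower a share. Shares need not move with the higher-scoring 50%. Around GRHL2, shCTL peaks kept in shSETD7 came to 44.4% there, against 43.8% in the main setting. DMSO peaks kept with GSK2879552 came to 78.9%, against 77.8%. Other shares changed more in that setting, though within their intervals. Around GATA2, shCTL peaks kept in shSETD7 went from 30.4% to 50% (5 of 10), and those found in vehicle from 21.7% to 40% (4 of 10). Around GRHL2, SETD7 peaks at FOXA1 peaks went from 14.3% to 33.3% (1 of 3). Chosen after seeing the data, shCTL peaks at vehicle peaks were kept in shSETD7 in 80% of cases around GATA2, the window held 21 sites without the shCTL list, and without the vehicle list 5 GATA2 and 8 GRHL2 sites were in all other FOXA1 lists. No paired analysis was possible because each group has 1 library. Unknown read depth limits every statement that a peak is absent.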

Other observations

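Some GRHL2 sites held a pair of peaks in a list. In site 42 a weaker second peak lay beside the main peak in the vehicle, DMSO and combination lists, at percentiles of 37.4, 32 and 37.8. The shCTL list had 1 peak of 643 bp there. In site 25 the DMSO list had a main peak at 60.2 and a second at 27.6, while the combination list had 1 peak of 797 bp.

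FOXA1 sites of the GRHL2 window were 6.0 kb apart at the median, and its widest gap without a FOXA1 site was 32.6 kb, between sites 49 and 50. In the GATA2 window the median gap was also 6.0 kb and the widest was 35.8 kb, between sites 20 and 21.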
